A study of Mus musculus with 6 samples.

Results

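The Wnt pathway was examined through 50 genes, chosen by name and sorted by role: 14 ligands, 13 receptors and co-receptors, 4 agonists, 9 secreted inhibitors, 5 intracellular inhibitors and 5 nuclear effectors. All probe sets annotated to exactly 1 of these genes were used, which gave 104 of the 34945 such probe sets on the array and 49 of the 50 genes. No probe set was named for Tcf7 in the annotation used here, so this gene was not analysed. Expression had been measured in 3 arrays of neural crest stem cells (NCSC) and 3 arrays of mesenchymal stem cells (MSC), both cultured from adult bone marrow. The neural crest arises at the border of the embryonic neural plate and gives rise to glia, sensory neurons and pigment cells. MSC are adherent stromal cells that can make cartilage, fat and bone. Both cell types came from female mice aged 10 weeks, of C57BL/6 x SV129 background and wnt1/CRE-R26R-lacZ genotype. In these animals Wnt1 sequences drive Cre, and Cre switches on a lacZ reporter, so that cells with an embryonic history of Wnt1 activity stay marked. Mesencult was the medium for NCSC and MSC alike, and clones were picked after 5 or more passages. The labels call the arrays biological replicates without saying whether they came from separate animals or clones, so p-values cover the spread among these arrays alone, and that spread may be technical. Where each cell type is 1 clone, a difference between clones and a difference between cell types cannot be told apart.

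Wnt proteins are secreted lipid-modified signals that bind Frizzled receptors with Lrp5 or Lrp6 as co-receptor. Without a signal, a complex built on Axin and Apc marks β-catenin (Ctnnb1) for breakdown. With one, β-catenin builds up, enters the nucleus and acts through the Tcf and Lef factors. In the embryo, Wnt signals help to induce the neural crest and guide its cells towards sensory and pigment fates. In bone marrow stroma they favour bone over fat formation.

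Values are GCRMA intensities on the log2 scale, whose lowest value was 2.12. A log2 value over 4 counted as above background. Probe sets that passed this limit on 3 or more of the 6 arrays were kept, and each gene was represented by its kept probe set with the highest mean. Differences are log2 values, NCSC minus MSC, with limma's standard error (SE), and a gene was called at a Benjamini-Hochberg adjusted p under 0.05 over all 10501 genes tested. The labelled cell types were checked with marker lists. Of 10 neural crest markers 9 were tested, of which 8 were higher and 1 lower in NCSC. The other, Ednrb, was not above the limit on any array. Of 12 mesenchymal markers 10 were tested, with 4 higher and 5 lower in NCSC. Pdgfrb, Eng, Nt5e and Cd44 were higher, and Nt5e was not above the limit on any MSC array. Pdgfra, Vcam1, Cxcl12, Prrx1 and Col1a1 were lower. Thy1 was not above the limit on any array. The summed linear intensity of this list overlapped between the groups, at 104345 to 114583 on NCSC arrays and 109698 to 115222 on MSC arrays. None of 6 endothelial markers was above the limit on any array. Of 8 macrophage and blood markers, 3 of the 4 tested were higher in NCSC. Their summed linear intensity was 816 to 943 on NCSC arrays and 173 to 196 on MSC arrays, while Ptprc, Itgam and Adgre1, which define blood cells and macrophages, were not above the limit on any array. Cd14, not tested, was above the limit on 2 of 3 MSC arrays and on no NCSC array. Of 7 Schwann cell and glial markers 3 were tested and all 3 were higher in NCSC, with a summed intensity of 14009 to 18144 on NCSC arrays and 4468 to 5014 on MSC arrays, and Gfap was not above the limit on any array. S100b, not tested, read 7.72, 7.29 and 2.15 on NCSC arrays in its brighter probe set, and 2.15 on each MSC array. The part of such cells in the results below was not tested. These are bulk samples, in which fewer cells of a type and less RNA per cell cannot be told apart. Within their groups NCSC 3 and MSC 2 stood apart, with 4.63% to 4.98% and 2.62% to 2.69% of tested genes more than 2-fold from the other arrays of the group.

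Of the 49 measured members 25 passed the filter on low values and were tested. In NCSC 13 of them were higher and 8 lower than in MSC, and 4 were not called. Across all genes tested 64.1% were called, 35.0% higher and 29.1% lower, so that most genes differed between these cell types and a call by itself sets no member apart. Of the called members 9 were at least 2-fold higher and 5 at least 2-fold lower, beside 15.1% and 14.0% of all genes. Without the filter 21 of all 49 measured members were called, beside 32.0% of all 18193 genes. Among the tested members 18 were above the limit on all 6 arrays, and of these 10 were higher and 4 lower in NCSC, beside 61.4% of such genes called in all. A further 3 members were above the limit on every NCSC array and no MSC array, against 3.13% of genes, and 3 on every MSC array and no NCSC array, against 3.09%. Members that passed the filter through 1 group alone had to differ, so their counts are a description. The median difference of the tested members was 0.36, against 0.056 for all tested genes. The values of NCSC and MSC arrays did not overlap for 21 of the 25 members, beside 71.2% of all genes. Over probe sets, 28 of the 51 kept for members were called higher and 15 lower in NCSC. Of all kept probe sets 60.1% were called, 33.0% higher and 27.2% lower. Leaving out NCSC 3 and MSC 2 together gave 14 members higher and 9 lower. The share of all genes in this setting is not given here, so these counts set no member apart.

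**Figure D1:**
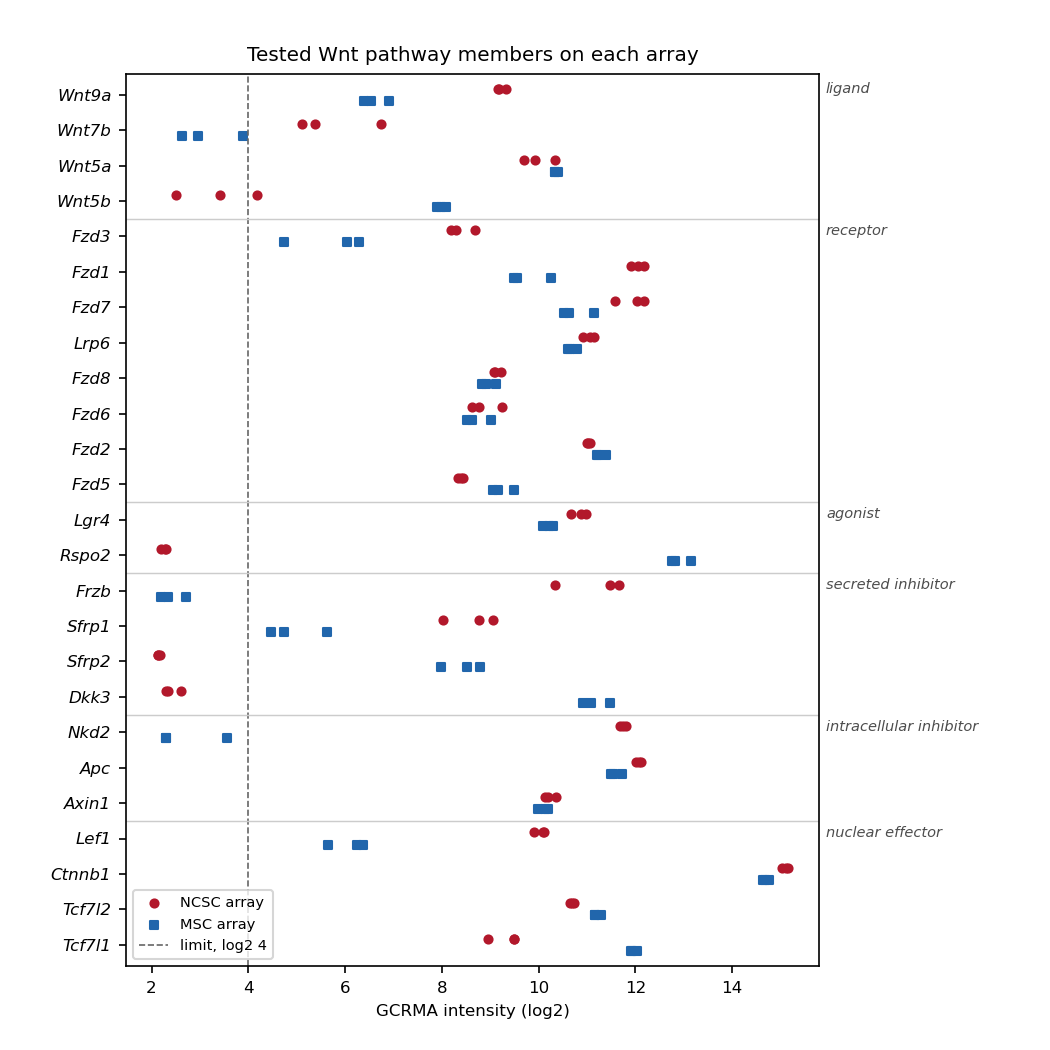
GCRMA intensity (log2, horizontal axis) of the 25 tested Wnt pathway members on each of the 3 NCSC arrays (red circles) and 3 MSC arrays (blue squares), by role, with the limit of 4 as a dashed line. Rspo2, Sfrp2 and Dkk3 lie under the limit on all NCSC arrays, and Frzb, Nkd2 and Wnt7b on all MSC arrays.

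Few Wnt ligands were measured above background in either cell type. Of 14 ligands 10 did not pass the filter, and 9 of these had no probe set above the limit on any array. Wnt1, Wnt2, Wnt2b, Wnt3 and Wnt11 stood at the lowest value of 2.12 on all 6 arrays. Wnt1, whose sequences drive Cre in these mice, was thus not above background in the cultured NCSC. Wnt10b reached 4.44 on MSC 3 alone.

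Among the ligands that were tested, Wnt9a and Wnt7b were higher and Wnt5b lower in NCSC, while Wnt5a was bright in both cell types. Wnt9a, a ligand known from joint formation, had log2 intensities of 9.17, 9.33 and 9.15 on NCSC arrays and 6.40, 6.90 and 6.54 on MSC arrays. All NCSC arrays were above all MSC arrays, a difference of 2.61 ± 0.15 (SE, n = 3 each; limma adjusted p = 2.41e-05), or 6.09-fold. Wnt7b, a ligand with known roles in lung, kidney and bone growth, read 5.37, 5.10 and 6.74 on NCSC arrays, against 2.96, 3.88 and 2.64 on MSC arrays. No MSC array passed the limit, so Wnt7b was at least 3.34-fold higher in NCSC (limma adjusted p = 0.00519), and at least 2.36-fold without NCSC 3, its brightest array. Wnt5b, which signals mostly without β-catenin, read 2.51, 4.18 and 3.41 on NCSC arrays, against 7.97, 7.89 and 8.09 on MSC arrays. It passed the limit on 1 of 3 NCSC arrays, and differed by -4.62 ± 0.40 (SE; limma adjusted p = 0.000147), a value that rests in part on readings under the limit. This probe set is of a type that may also bind transcripts of other genes. The other kept Wnt5b probe set was under the limit on all NCSC arrays and was at least 3.49-fold lower there.

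Wnt5a, the main ligand of the β-catenin-independent branch, had values of 9.92, 9.69 and 10.34 on NCSC arrays and of 10.34, 10.40 and 10.34 on MSC arrays. NCSC 3 lay at the MSC level, while NCSC 1 and NCSC 2 were lower. The difference of -0.37 ± 0.17 (SE) was not called (limma adjusted p = 0.0965), with a 95% confidence interval of -0.78 to 0.038. Without NCSC 3 it was -0.55 and called (limma adjusted p = 0.00445). All 3 kept Wnt5a probe sets had a negative difference, and 1 of them was called in the fit over probe sets.

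Genes that serve the secretion of Wnt proteins are given beside the ligands. Porcn, which attaches the lipid, had means of 8.30 in NCSC and 5.80 in MSC and was higher by 2.49 ± 0.29 (SE, n = 3 each; limma adjusted p = 0.000535). Wls, the carrier that takes Wnt proteins to the cell surface, had means of 12.77 in NCSC and 13.14 in MSC, a difference of -0.37 ± 0.090 (limma adjusted p = 0.0115). With the mean of its probe sets the Wls difference was -0.15 and was not called (limma adjusted p = 0.148).

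Several Frizzled receptors were above background in both cell types. Of the 13 receptors 8 were tested, and all 8 were above the limit on every array. In NCSC Fzd1, Fzd3, Fzd7 and Lrp6 were higher and Fzd2 and Fzd5 lower, while Fzd6 and Fzd8 were not called. The rest had no probe set above the limit on any array. These were Fzd4, Fzd9, Fzd10, the co-receptor Lrp5 and Ror2, a receptor tyrosine kinase that binds Wnt5a.

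Fzd1 read 12.18, 12.05 and 11.92 on NCSC arrays and 9.55, 10.25 and 9.50 on MSC arrays. The groups did not overlap and differed by 2.28 ± 0.22 (SE, n = 3 each; limma adjusted p = 0.000216), or 4.86-fold. Fzd3, a receptor known for guiding axons and orienting cells within a sheet, read 8.20, 8.29 and 8.69 on NCSC arrays, against 6.28, 4.73 and 6.04 on MSC arrays, with MSC 2 the lowest. It was 6.55-fold higher in NCSC (2.71 ± 0.41, SE; limma adjusted p = 0.0017), and the other 2 kept probe sets gave smaller positive differences of 1.40 and 0.93, the last not called. Fzd7, often found on stem and progenitor cells, read 12.18, 12.04 and 11.59 on NCSC arrays and 10.52, 11.15 and 10.63 on MSC arrays. No MSC array reached the lowest NCSC array, and the difference was 1.17 ± 0.22 (SE; limma adjusted p = 0.00451).

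Fzd5 went the other way, with 8.45, 8.32 and 8.39 on NCSC arrays against 9.05, 9.49 and 9.16 on MSC arrays. It was lower on every NCSC array than on any MSC array, with a difference of -0.85 ± 0.13 (SE, n = 3 each; limma adjusted p = 0.00162). Fzd2 read 11.07, 11.03 and 10.99 on NCSC arrays and 11.40, 11.21 and 11.23 on MSC arrays in its brightest probe set. This small difference of -0.25 ± 0.085 (SE; limma adjusted p = 0.0399) lost its call without NCSC 1, NCSC 2, NCSC 3, MSC 1 or MSC 3, at adjusted p from 0.0631 to 0.133. The other 2 Fzd2 probe sets gave differences of -0.98 and -0.96, both called in the fit over probe sets, so that the size of the Fzd2 difference depended on the probe set. Fzd8 likewise gave 0.18 ± 0.10 (SE; limma adjusted p = 0.154) in its brightest probe set and 1.11, called over probe sets, in the other. It was called in its brightest probe set without MSC 2 (0.26, limma adjusted p = 0.0419). Fzd6 differed by 0.16 ± 0.20 (SE), with a 95% confidence interval of -0.34 to 0.65 and overlapping groups.

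The co-receptor Lrp6 read 11.15, 10.92 and 11.06 on NCSC arrays, against 10.65, 10.80 and 10.60 on MSC arrays. It was higher by 0.36 ± 0.10 (SE, n = 3 each; limma adjusted p = 0.0195), and its other probe set gave the same 0.36. The call was lost without NCSC 1, MSC 1 or MSC 3 (limma adjusted p = 0.0661, 0.067 and 0.0733).

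**Figure D2:**
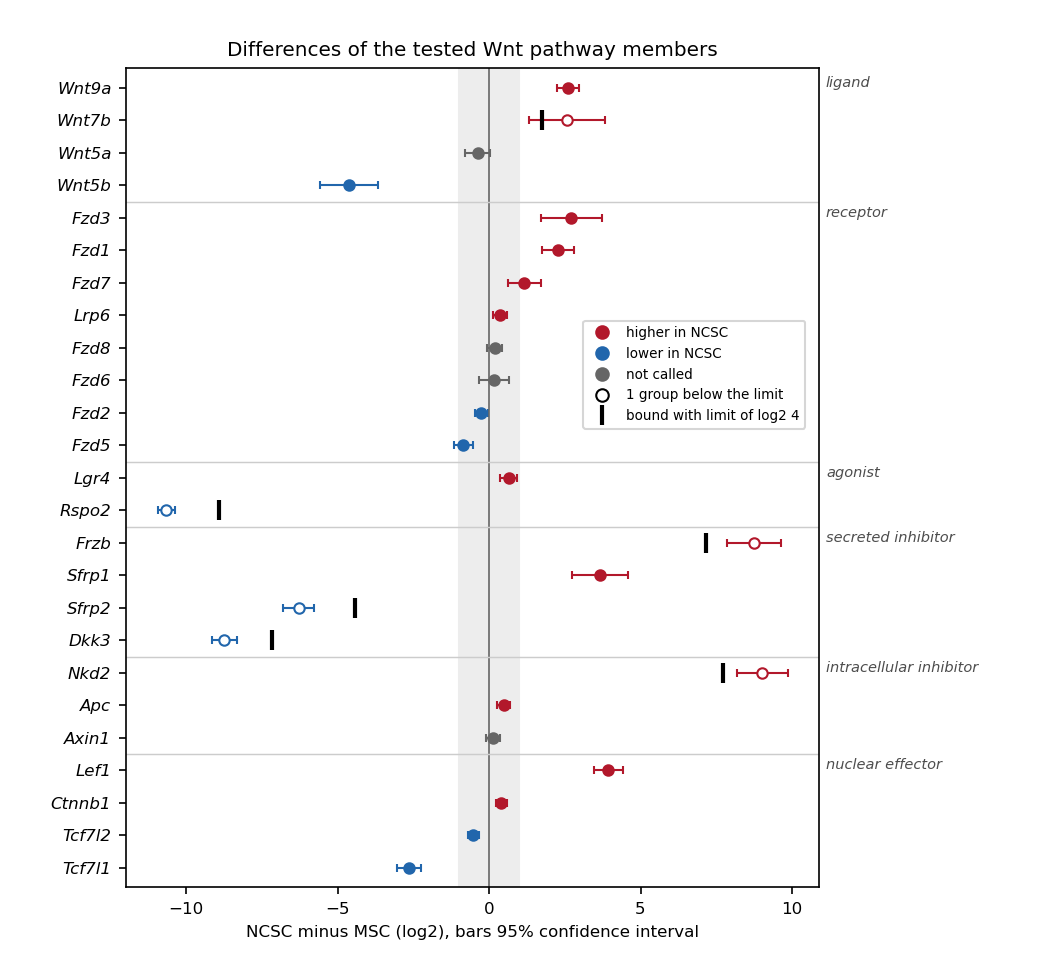
Difference NCSC minus MSC (log2, horizontal axis) of the 25 tested members with the 95% confidence interval of the limma fit. Red marks members called higher and blue those called lower in NCSC, grey those not called. Open circles mark members under the limit on all arrays of 1 cell type, and the black tick is their bound when values under 4 are set to 4. The grey band spans differences of less than 2-fold, and 10 members have their whole interval within it.

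R-spondins are secreted agonists that bind Lgr receptors and keep Frizzled receptors at the cell surface by drawing off the ubiquitin ligases Znrf3 and Rnf43, which would remove them. Of these agonists Rspo2 was above background in MSC alone. It had values of 2.29, 2.19 and 2.28 on NCSC arrays, near the lowest value, against 12.82, 13.14 and 12.75 on MSC arrays. Rspo2 was at least 480-fold lower in NCSC (limma adjusted p = 2.8e-08). A second Rspo2 probe set stood at 2.22 on all 6 arrays. Rspo1 and Rspo3 were not above the limit on any array, so that of these 3 R-spondins Rspo2 alone was above background, and in MSC alone.

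The receptor side of this branch was present in both cell types. Lgr4 read 10.97, 10.88 and 10.67 on NCSC arrays and 10.21, 10.09 and 10.30 on MSC arrays. The groups did not overlap, and Lgr4 was higher by 0.64 ± 0.11 (SE, n = 3 each; limma adjusted p = 0.00294). Among the related genes that are not members, Lgr6, another R-spondin receptor, was higher by 4.18 ± 0.37 (SE; limma adjusted p = 0.000159), with means of 12.43 in NCSC and 8.25 in MSC. Znrf3 was higher by 0.74 ± 0.092 (SE; limma adjusted p = 0.000704).

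The secreted inhibitors divided by gene. In NCSC Frzb and Sfrp1 were higher, and Sfrp2 and Dkk3 lower. The other 5 of the 9, Sfrp4, Sfrp5, Dkk1, Dkk2 and Wif1, did not pass the filter. Of these Dkk2 alone was above the limit on an array, at 4.34 on MSC 2.

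Frzb, Sfrp1 and Sfrp2 belong to the secreted Frizzled-related proteins, which resemble the ligand-binding part of Frizzled and hold Wnt proteins away from the receptors. Frzb, first known from cartilage, read 11.67, 11.47 and 10.34 on NCSC arrays, against 2.21, 2.72 and 2.33 on MSC arrays. No MSC array passed the limit, and Frzb was at least 143-fold higher in NCSC (limma adjusted p = 6.63e-06). NCSC 3 was lower than the other 2 NCSC arrays. In the second Frzb probe set NCSC 3 stood apart more, with 8.03, 7.87 and 5.82 on NCSC arrays and 2.13 on all MSC arrays.

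Sfrp1 had 4 kept probe sets, all called higher in NCSC. In the brightest it read 8.02, 8.76 and 9.06 on NCSC arrays, against 5.63, 4.47 and 4.74 on MSC arrays. This was a difference of 3.67 ± 0.38 (SE, n = 3 each; limma adjusted p = 0.000326), or 12.7-fold. In another the MSC arrays were nearly constant, at 5.74, 5.75 and 5.75, which may be the lowest value of that probe set. Its difference of 1.55 is thus not read as a size. In the other two no MSC array was above the limit, and Sfrp1 was at least 39.0-fold and at least 20.5-fold higher in NCSC. The direction was thus shared by all 4 while the size was not.

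Sfrp2 showed the opposite pattern to Frzb and Sfrp1. It read 2.19, 2.12 and 2.12 on NCSC arrays and 8.80, 7.98 and 8.53 on MSC arrays, so that it was at least 21.6-fold lower in NCSC (limma adjusted p = 2.2e-06). Dkk3 is a divergent member of the Dickkopf family, whose effect on Wnt signals is less clear than that of Dkk1. It read 2.34, 2.29 and 2.61 on NCSC arrays, against 11.08, 11.47 and 10.92 on MSC arrays. Dkk3 was at least 143-fold lower in NCSC (limma adjusted p = 2.18e-07), and its second probe set gave at least 123-fold. The groups lay far apart in both probe sets.

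**Figure D3:**
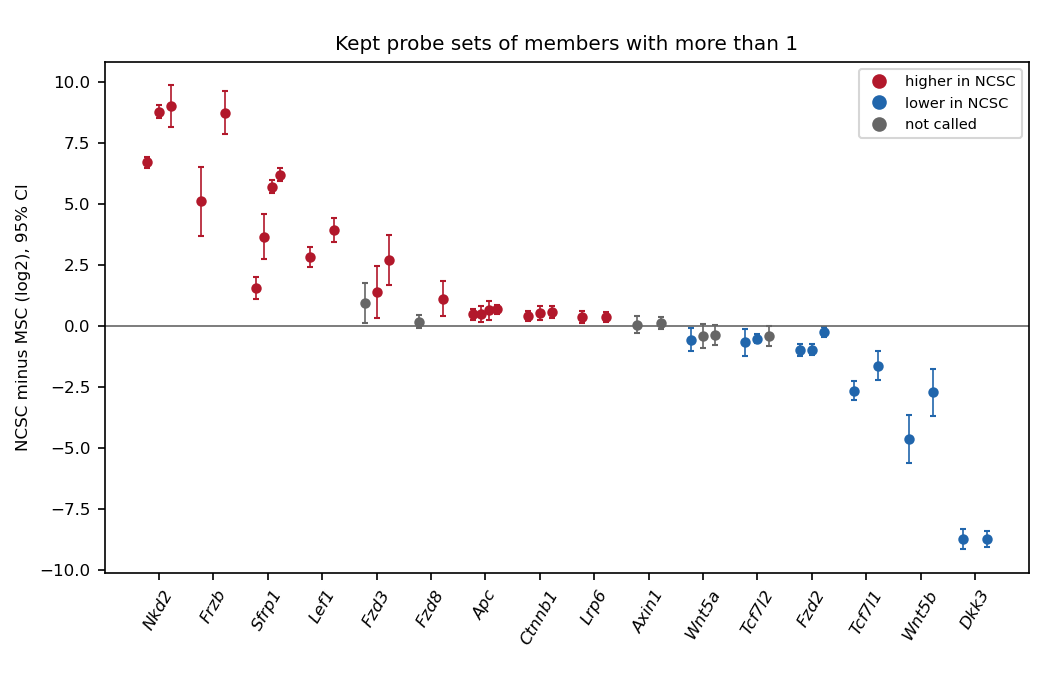
Difference NCSC minus MSC (log2, vertical axis) with the 95% confidence interval for each kept probe set of the 16 members with more than 1, from the fit over probe sets. Red, blue and grey mark called higher in NCSC, called lower in NCSC and not called. All probe sets of a member share 1 sign, while their sizes differ for Sfrp1, Frzb and Fzd2. Values of dim probe sets rest on readings under the limit.

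Of the inhibitors within the cell, Nkd2 was above background in NCSC alone. Nkd proteins bind Dishevelled, the relay beneath the Frizzled receptors, and dampen the signal. Nkd2 read 11.67, 11.80 and 11.74 on NCSC arrays, against 2.31, 3.57 and 2.31 on MSC arrays. No MSC array passed the limit, and Nkd2 was at least 214-fold higher in NCSC (limma adjusted p = 4.68e-06). Its other 2 kept probe sets gave at least 132-fold and at least 32.1-fold. None of the 4 probe sets of its relative Nkd1 was above the limit on any array.

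The scaffold genes of the β-catenin breakdown complex differed little. Apc read 12.11, 12.02 and 12.08 on NCSC arrays and 11.50, 11.73 and 11.54 on MSC arrays. It was higher on every NCSC array, by 0.48 ± 0.092 (SE, n = 3 each; limma adjusted p = 0.00448), and all 4 of its probe sets were called higher, by 0.48 to 0.68. Axin1 had overlapping groups, with a difference of 0.13 ± 0.10 (SE) and a 95% confidence interval of -0.11 to 0.37, which lies within 2-fold. Axin2, a relative of Axin1 that β-catenin itself induces in many cells, read in the brighter of its 2 probe sets 3.57, 3.58 and 3.94 on NCSC arrays and 3.57 on each MSC array. It was therefore under the limit in both cell types and not tested. Of the kinases of this complex, which are not members, Gsk3b was higher by 0.83 ± 0.093 (SE; limma adjusted p = 0.000441) and Csnk1a1 was not called at 0.15 ± 0.082 (SE; limma adjusted p = 0.158).

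The nuclear factors of the pathway differed in both directions. Lef1, mostly an activator of Wnt targets, was higher in NCSC. It read 10.10, 10.09 and 9.91 on NCSC arrays, against 6.25, 5.65 and 6.38 on MSC arrays. The groups were well separated, by 3.94 ± 0.20 (SE, n = 3 each; limma adjusted p = 1.55e-05), or 15.4-fold. The second Lef1 probe set was under the limit on all MSC arrays and at least 2.16-fold higher in NCSC.

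Tcf7l1, known mostly as a repressor of Wnt targets, was lower in NCSC. It read 9.48, 9.48 and 8.96 on NCSC arrays and 12.02, 11.93 and 11.92 on MSC arrays, a difference of -2.65 ± 0.16 (SE, n = 3 each; limma adjusted p = 3.36e-05), or 6.28-fold. Its second probe set gave -1.63. Tcf7l2, which can activate or repress, read 10.69, 10.66 and 10.73 on NCSC arrays and 11.29, 11.17 and 11.17 on MSC arrays. It was lower in NCSC with a smaller difference of -0.52 ± 0.077 (SE; limma adjusted p = 0.00154), and its other 2 kept probe sets gave -0.67, called over probe sets, and -0.41, not called.

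β-catenin, Ctnnb1, was bright in both cell types, at 15.10, 15.03 and 15.14 on NCSC arrays and 14.68, 14.75 and 14.63 on MSC arrays. All NCSC arrays were above all MSC arrays, by 0.41 ± 0.078 (SE, n = 3 each; limma adjusted p = 0.00457), and its 3 probe sets were all called higher, by 0.41 to 0.56. Arrays measure RNA, and the β-catenin protein on which the pathway acts was not measured. In all, 10 tested members had a 95% confidence interval within 2-fold, beside 55.3% of all genes. They were Wnt5a, Fzd2, Fzd6, Fzd8, Lrp6, Lgr4, Axin1, Apc, Tcf7l2 and Ctnnb1. This holds for the probe set that stood for each gene. Other kept probe sets of Wnt5a, Fzd2, Fzd8, Apc and Tcf7l2 had intervals that passed 2-fold.

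Promoter windows are shown for called members because Lef1 and Tcf7l1, which bind the same short motif, differed in opposite directions. RefSeq windows of 300 bases, from 250 before to 50 after a start (GRCm38.p6), were counted for 34 of the 50 members. Apc and Fzd8 are among the members left out, which does not show that they have no window. The form CTTTGA of the core motif of the Tcf and Lef factors was searched on both strands, so also as TCAAAG. Other forms of the motif, such as CTTTGT, were not searched. The searched form was found in 4 of 20 counted windows of the tested members (20.0%), and in 6 of the 43 counted windows of members (14.0%). The other 2 were windows of Dkk1 and Wnt11, which were not tested. Of all 32851 windows 16.0% held it. Members may have been left out by a rule that was not applied to all windows, so these shares are not compared. The counted windows of tested members with this form were those of Frzb, Fzd1 and Lef1, all higher in NCSC, and of Wnt5b, lower in NCSC. They are followed by the windows of Nkd2, higher in NCSC, and Sfrp2, lower in NCSC, which hold no match. Capitals mark the searched form of the motif, and all are printed 5′ to 3′ on the strand of the gene.
Frzb (chr2:80447347-80447646, minus strand): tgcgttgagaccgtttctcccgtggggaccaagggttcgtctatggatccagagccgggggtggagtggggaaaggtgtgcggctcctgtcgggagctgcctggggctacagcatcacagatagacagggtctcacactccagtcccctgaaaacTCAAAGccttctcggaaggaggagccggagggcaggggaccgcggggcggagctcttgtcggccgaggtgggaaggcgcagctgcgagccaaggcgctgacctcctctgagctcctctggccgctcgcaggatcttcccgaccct
Fzd1 (chr5:4758167-4758466, minus strand): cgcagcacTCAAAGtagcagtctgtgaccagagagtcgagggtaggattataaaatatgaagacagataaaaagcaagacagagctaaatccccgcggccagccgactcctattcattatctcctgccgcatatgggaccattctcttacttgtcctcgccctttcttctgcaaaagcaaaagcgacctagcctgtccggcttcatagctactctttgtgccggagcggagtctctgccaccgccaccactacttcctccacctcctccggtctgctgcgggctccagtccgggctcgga
Lef1 (chr3:131156044-131156343, plus strand): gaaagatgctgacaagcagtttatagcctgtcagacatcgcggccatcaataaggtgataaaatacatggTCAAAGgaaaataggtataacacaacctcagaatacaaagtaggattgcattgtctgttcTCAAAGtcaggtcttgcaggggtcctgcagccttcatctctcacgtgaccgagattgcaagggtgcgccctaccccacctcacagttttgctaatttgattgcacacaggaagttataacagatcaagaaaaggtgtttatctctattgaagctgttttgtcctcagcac
Wnt5b (chr6:119449337-119449636, minus strand): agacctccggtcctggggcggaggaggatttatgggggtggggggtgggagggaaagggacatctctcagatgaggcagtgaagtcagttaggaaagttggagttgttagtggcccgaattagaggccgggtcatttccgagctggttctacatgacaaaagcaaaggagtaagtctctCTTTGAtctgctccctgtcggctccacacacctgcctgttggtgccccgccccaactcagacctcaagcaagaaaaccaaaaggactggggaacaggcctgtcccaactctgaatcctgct
Nkd2 (chr13:73847582-73847881, minus strand): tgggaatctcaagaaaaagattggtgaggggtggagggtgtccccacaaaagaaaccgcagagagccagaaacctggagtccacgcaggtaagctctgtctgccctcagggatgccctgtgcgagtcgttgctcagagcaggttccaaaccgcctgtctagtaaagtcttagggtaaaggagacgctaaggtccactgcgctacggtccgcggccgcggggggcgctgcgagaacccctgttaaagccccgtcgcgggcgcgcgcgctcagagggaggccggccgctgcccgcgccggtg
Sfrp2 (chr3:83766071-83766370, plus strand): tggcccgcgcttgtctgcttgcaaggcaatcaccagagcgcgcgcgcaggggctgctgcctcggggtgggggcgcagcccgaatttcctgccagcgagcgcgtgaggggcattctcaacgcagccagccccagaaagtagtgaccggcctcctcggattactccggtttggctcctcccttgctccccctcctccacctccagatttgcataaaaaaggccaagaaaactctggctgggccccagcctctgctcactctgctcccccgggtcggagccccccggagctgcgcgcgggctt
The match lies at -95 in the Frzb window, at -242 in that of Fzd1, and at -71 in the window of Wnt5b, which is the most downstream of 3. Lef1 has matches at -180 and -120 in the most downstream of its 4 windows, and none in the others. Positions count from the annotated start to the first base of the match. A match is a description of these letters and not a measured binding site, and which start the cells used was not measured.

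A wider list of 87 Wnt pathway genes that are not members was examined beside the 50. Of these 64 were tested, of which 29 were higher and 15 lower in NCSC and 20 were not called, with a median difference of 0.15, beside the 64.1% of all genes called. Among those higher were Dact1, Lrp4, Lgr6, Tnik and Jag1. Dact1, which binds Dishevelled as the Nkd proteins do, was at least 23.2-fold higher in NCSC (limma adjusted p = 5.32e-07). Lrp4, a receptor that also binds Wnt inhibitors, had means of 9.19 in NCSC and 4.22 in MSC, where 2 of 3 arrays passed the limit, and Tnik, a kinase partner of Tcf7l2, had means of 10.74 in NCSC and 7.43 in MSC. The tested genes of this list include Wnt3a, not called, whose probe set stood at 4.52 on all 6 arrays. Passing the limit thus does not by itself show expression. The cofactors of the nuclear factors also divided by gene. The corepressor Tle1 was higher by 1.45 ± 0.15 (SE, n = 3 each; limma adjusted p = 0.000313) and Tle4 lower, at -2.05 ± 0.24 (SE; limma adjusted p = 0.000515). Ctnnbip1, which keeps β-catenin from the Tcf factors, was lower at -1.51 ± 0.079 (SE; limma adjusted p = 1.88e-05).

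Genes often used as readouts of β-catenin did not share a direction. Of 14 such genes 10 were tested, with 5 higher and 3 lower in NCSC, beside 35.0% higher and 29.1% lower of all genes. Jag1, a Notch ligand, was higher by 2.83 ± 0.15 (SE, n = 3 each; limma adjusted p = 1.86e-05), while Myc was lower at -1.19 ± 0.24 (SE; limma adjusted p = 0.00576) and the mesenchymal factor Twist1 at -1.92 ± 0.25 (SE; limma adjusted p = 0.000882). Ccnd1, cyclin D1, had means of 14.75 in NCSC and 14.43 in MSC, a difference of 0.33 ± 0.10 (SE; limma adjusted p = 0.03). It was not called without NCSC 1, NCSC 3, MSC 1 or MSC 3 (limma adjusted p from 0.0538 to 0.104), nor with arrays centred on their median, with no filter or with the replicate block. Lef1 and Axin2, both members and both targets in many tissues, differed in that Lef1 was above the limit in both cell types and Axin2 in neither.

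**Figure D4:**
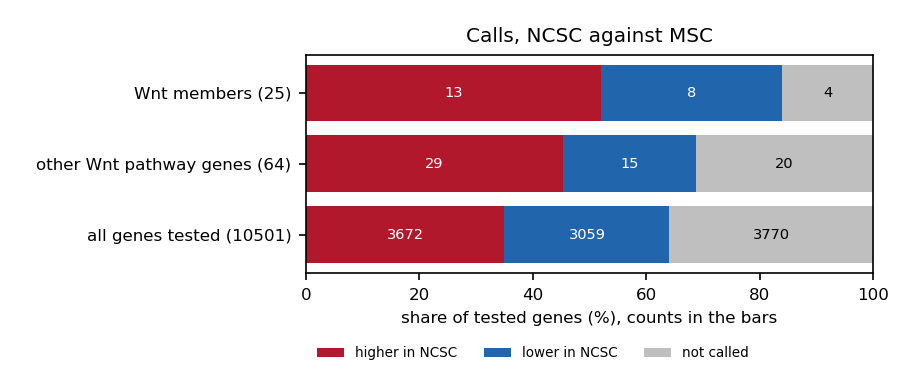
Share of tested genes (%, horizontal axis) called higher in NCSC (red), called lower in NCSC (blue) and not called (grey), with the counts in the bars, for 25 Wnt members, 64 other Wnt pathway genes and all 10501 genes tested. The members show 13, 8 and 4 genes, and the members that passed the filter through 1 group alone had to differ.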

How the data were processed

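The authors deposited GCRMA intensities of 6 Affymetrix arrays on a linear scale, per the submitters' processing notes and the values themselves, which run from 4.36 to 116597. GCRMA removes background by probe sequence, makes arrays comparable by quantiles and combines the probes into 1 value a set. Its version is not given in the sources used here. Intensities were taken to log2 with no further normalization. Probe sets were named through a platform annotation, with 34741 of 34945 updated by Entrez ID to RefSeq symbols. The filter, the choice of probe set and the test (two-sided, without covariates, by lmFit and then eBayes of limma 3.58.1 under R 4.3.3) are those given above, and every fit ran on the whole table. It was tested on simulated data. A second fit used all 18640 kept probe sets. "At least" folds set values under log2 4 to 4 in the dimmer group. The p beside such a fold is from the fit with those values left as they were, and does not belong to the bound. The number of arrays limits the precision.

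All 50 members may be named. From the wider list, named genes are 10 called ones, the 5 furthest up and the 5 furthest down in NCSC by fitted difference, and 9 whose role stands beside a member's, chosen after their values were seen. The members and lists were chosen with earlier results of these data known.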

Additional observations from a re-analysis of the deposited data

How the results depend on the processing

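Over 17 alternatives (normalization, filter, floor, probe set choice, spread model, replicate block, arrays left out) the members called numbered 14 to 23, with 10 to 14 higher and 4 to 9 lower in NCSC. The lowest counts, 10 higher and 4 lower of 18, came with values over 4 required on all 6 arrays, which drops the members under the limit in 1 cell type. Leaving out each array gave 12 to 14 higher and 7 to 8 lower. Over all genes the same fits gave 3152 to 3867 higher and 2554 to 3317 lower. For the other alternatives members alone are counted here, so those counts set no member apart. Without the filter, 32 of 49 members had an interval within 2-fold, where 22 had no probe set above the limit on any array. Fzd6, never called, changed sign with array weights (-0.064), without NCSC 3 (-0.022), and without NCSC 3 and MSC 2 together (-0.12). It ran from -0.022 to 0.31 when each array was left out. Csnk1a1 was lower in NCSC with the mean of its probe sets (-0.47, limma adjusted p = 0.00489). The cause was not tested. Among the members Wnt5a and Fzd8 gained a call in 3 and 4 alternatives, and Fzd2 and Lrp6 lost theirs in 6 and 4, while the other 21 stayed on the same side of the threshold in each alternative that tested them. No pairing by replicate number was seen: deviations of arrays with the same number correlated at -0.098, 0.062 and 0.073. Those of arrays with different numbers ran from -0.106 to 0.110. With so few arrays this does not exclude a pairing. With the replicate block 19 members were called, and Fzd2 and Lrp6 were not (limma adjusted p = 0.0818 and 0.06). Values under 4 have no order, so differences of members under the limit in 1 cell type are read as bounds.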

Other observations

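Genes of the planar polarity and calcium branches of Wnt signalling, which orient cells and move them without β-catenin, were also measured, and 11 of 14 were tested. In NCSC 5 were higher and 4 lower, beside 35.0% higher and 29.1% lower of all genes tested. Prickle1 and Prickle2, core polarity proteins, were both lower in NCSC. Prickle2 had means of 5.52 in NCSC and 9.32 in MSC, a difference of -3.81 ± 0.28 (SE, n = 3 each; limma adjusted p = 8.21e-05), and Prickle1 was at least 4.71-fold lower (limma adjusted p = 2.5e-05). Ptk7, a co-receptor known in Xenopus for its part in neural crest migration, was under the limit on all NCSC arrays and at least 23.9-fold lower there than in MSC, with means of 2.48 in NCSC and 8.58 in MSC (limma adjusted p = 2.19e-06).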
